A study of Mus musculus with 4 samples.

Results

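The neutrophil granule genes described here are 10 mouse genes chosen by name: Mpo, Elane, Prtn3 and Ctsg of primary granules, Ltf, Camp, Ngp and Lcn2 of secondary granules, and S100a8 and S100a9, whose products are cytosolic. All 10 were found by their symbol among the 54532 genes of the count table, and all 10 passed the filter on low counts. They were measured by bulk RNA sequencing in 4 libraries of sorted cells from the periosteum, the sheet of tissue on the outside of bone, taken from long bones of mice aged 4 weeks. All mice carried CtskCre and the mTmG reporter, so cells of the Ctsk lineage were GFP-positive. 2 libraries came from mice labelled wild-type (GFP+) and 2 from mice without Sfrp4 (GFP+Sfrp4-/-), whose product is a secreted antagonist of Wnt signalling, and each library held the pooled cells of 3 mice. The pools are numbered by the replicate number (rep.) of their labels. GFP-positive, CD200-positive cells without CD45, CD31, Ter119, Thy1.2, 6C3 or CD105 were sorted, so the gate was set against blood cells, and the label gives the sorted cells as periosteal stem cells. Which part of Sfrp4 is deleted is not stated in the labels.

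Neutrophils are made in the bone marrow and fill their granules in a fixed order. Promyelocytes make the azurophil or primary granules, with myeloperoxidase and the serine proteases elastase, proteinase 3 and cathepsin G. Myelocytes and metamyelocytes then make the specific or secondary granules, with lactoferrin, cathelicidin, neutrophilic granule protein and lipocalin 2, and shut down transcription of the primary granule genes. S100A8 and S100A9 form the calcium-binding heterodimer calprotectin, which fills the cytosol of the mature cell, and their transcripts rise late. In mouse marrow, transcripts of the primary set therefore mark earlier cells than those of the other sets.

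The libraries held 17119332 to 18750003 counts, and levels are given as CPM (counts per 1e+06, after library totals had been corrected for composition), on which 1 count stands for 0.0486 to 0.0667. As a check of the labels, Sfrp4 was at 90.8 and 108 CPM in wild-type pools 1 and 2, against 11.4 and 12.1 CPM in Sfrp4-/- pools 1 and 2 (log2 fold change -3.08 ± 0.31, edgeR adjusted p = 0.377). Among the genes of the sort, Ctsk lay between 1054 and 2050 CPM and Cd200 between 442 and 669 CPM. Ptprc, which encodes CD45, lay between 5.87 and 9.45 CPM, and Thy1 had 0 counts in every library. Because the mice were pooled, p-values measure the spread between pools. The libraries of a genotype also differed from each other, with bone matrix genes Sparc, Col1a1 and Col1a2 at 31.5% and 20.1% of wild-type counts and at 25.4% and 15.3% of Sfrp4-/- counts.

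The start regions of the granule genes are shown because PU.1, C/EBP and MYB proteins are known regulators of granule genes. Whether these sequences have a part in the levels across the libraries was not tested. All 10 members had an entry in the RefSeq promoter table (build GRCm38.p6), which covers 250 bases before and 50 bases after the annotated RNA start. The windows of the primary granule genes are chr11:87793534-87793833 (plus strand) for Mpo, chr10:79886062-79886361 (plus strand) for Elane, chr10:79879417-79879716 (plus strand) for Prtn3 and chr14:56102525-56102824 (minus strand) for Ctsg. RefSeq places the starts of Mpo, Elane and Prtn3 inside the longer genes of the count table, farthest in for Prtn3. The starts of Ltf, Camp, Ngp, Lcn2 and S100a8 also lie inside theirs. The windows are written from 5′ to 3′ on the gene's strand, with capitals at each GAGGAA or its reverse complement TTCCTC, the core of the site bound by PU.1.
Mpo: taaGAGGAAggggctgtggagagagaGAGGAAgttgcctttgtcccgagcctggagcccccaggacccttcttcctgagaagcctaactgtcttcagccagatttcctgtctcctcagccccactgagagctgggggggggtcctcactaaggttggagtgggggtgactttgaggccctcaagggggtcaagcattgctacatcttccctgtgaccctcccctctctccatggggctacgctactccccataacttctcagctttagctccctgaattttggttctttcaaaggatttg
Elane: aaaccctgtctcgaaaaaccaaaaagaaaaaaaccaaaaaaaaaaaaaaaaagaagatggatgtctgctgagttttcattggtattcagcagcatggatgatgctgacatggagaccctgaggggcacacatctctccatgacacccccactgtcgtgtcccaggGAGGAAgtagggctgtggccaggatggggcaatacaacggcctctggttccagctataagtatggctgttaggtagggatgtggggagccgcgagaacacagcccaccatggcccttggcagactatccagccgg
Prtn3: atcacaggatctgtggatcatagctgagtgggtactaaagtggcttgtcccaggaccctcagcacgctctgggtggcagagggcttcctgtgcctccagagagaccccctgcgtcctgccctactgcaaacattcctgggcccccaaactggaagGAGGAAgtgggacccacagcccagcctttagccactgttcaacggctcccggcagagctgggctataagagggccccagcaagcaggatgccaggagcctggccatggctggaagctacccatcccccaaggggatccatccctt
Ctsg: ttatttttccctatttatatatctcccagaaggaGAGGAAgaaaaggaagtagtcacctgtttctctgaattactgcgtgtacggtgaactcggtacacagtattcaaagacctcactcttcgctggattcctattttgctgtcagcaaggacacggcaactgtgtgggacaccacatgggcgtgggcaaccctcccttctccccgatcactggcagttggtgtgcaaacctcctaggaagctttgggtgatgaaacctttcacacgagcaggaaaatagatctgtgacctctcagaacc

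All 4 primary granule genes held this core, as did 2 of the 4 secondary granule genes (Ltf and Lcn2) and S100a8 of the cytosolic pair. It was in 28.3% of all 32851 promoter windows. The C/EBP pattern TTNNGNAA, searched on both strands, was in 0 of the 4 primary windows, in 3 of the 4 secondary windows (Ltf, Ngp and Lcn2) and in both cytosolic windows, against 40.7% of all windows. Looser forms of the C/EBP pattern were not searched, so the 4 primary windows and that of Camp may still hold C/EBP sites. The MYB core AACNG was in all 10 windows, but also in 80.3% of all windows. Of the 5 patterns searched, the others were the TATA box TATAAA (3 of 10 members, 13.6% of all windows) and the GATA pattern AGATAA (2 of 10 members, 11.2%). The patterns were chosen from textbook knowledge after the sequences could be seen, and a match describes letters in the window, not a bound site. The 3 windows with more than 1 C/EBP match are shown next, with capitals at TTNNGNAA or its reverse complement. They are chr9:110419558-110419857 (plus strand) for Ngp, chr9:111019042-111019341 (plus strand) for Ltf and chr3:90695672-90695971 (minus strand) for S100a9.
Ngp: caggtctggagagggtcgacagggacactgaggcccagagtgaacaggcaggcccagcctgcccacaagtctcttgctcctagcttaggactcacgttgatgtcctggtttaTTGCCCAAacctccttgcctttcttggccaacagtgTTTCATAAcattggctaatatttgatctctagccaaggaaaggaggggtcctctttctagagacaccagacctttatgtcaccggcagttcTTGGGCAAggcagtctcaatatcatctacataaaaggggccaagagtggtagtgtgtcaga
Ltf: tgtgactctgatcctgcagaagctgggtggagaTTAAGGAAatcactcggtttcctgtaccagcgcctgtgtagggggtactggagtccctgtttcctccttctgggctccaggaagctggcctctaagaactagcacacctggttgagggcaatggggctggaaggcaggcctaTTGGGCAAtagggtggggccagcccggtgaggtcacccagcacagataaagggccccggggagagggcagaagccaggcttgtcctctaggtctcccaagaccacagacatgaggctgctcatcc
S100a9: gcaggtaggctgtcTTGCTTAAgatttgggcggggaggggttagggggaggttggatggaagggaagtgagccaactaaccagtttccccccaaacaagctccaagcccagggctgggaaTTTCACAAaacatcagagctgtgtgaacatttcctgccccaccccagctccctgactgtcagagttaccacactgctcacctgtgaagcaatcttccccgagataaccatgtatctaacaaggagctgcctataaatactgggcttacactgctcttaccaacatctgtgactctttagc

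Together the 10 genes took 0.0416% and 0.0902% of the counts of wild-type pools 1 and 2, against 0.0998% and 0.163% of those of Sfrp4-/- pools 1 and 2. Granule transcripts were thus present in every library despite the CD45 gate, at a summed 475, 929, 1011 and 1372 CPM in the same order. Whether a higher level reflects more cells of a type or more RNA per cell cannot be told apart in bulk samples. Levels of different genes were compared per kilobase of gene length. On that scale Ngp had the highest mean over the 4 libraries at 344 CPM per kilobase, followed by S100a9 at 220, Camp at 95.6, S100a8 at 67.4, Elane at 39.2, Ltf at 33.0, Lcn2 at 26.7, Mpo at 13.6, Prtn3 at 10.5 and Ctsg at 4.60 CPM per kilobase. The ranges over the libraries of each pair of neighbours in this order overlapped. The order also differed between libraries: in wild-type pool 1 Elane, at 66.4 CPM per kilobase, lay above S100a9 at 54.3, while in Sfrp4-/- pool 2 Elane was at 11.3 and S100a9 at 462.

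**Figure D1:**
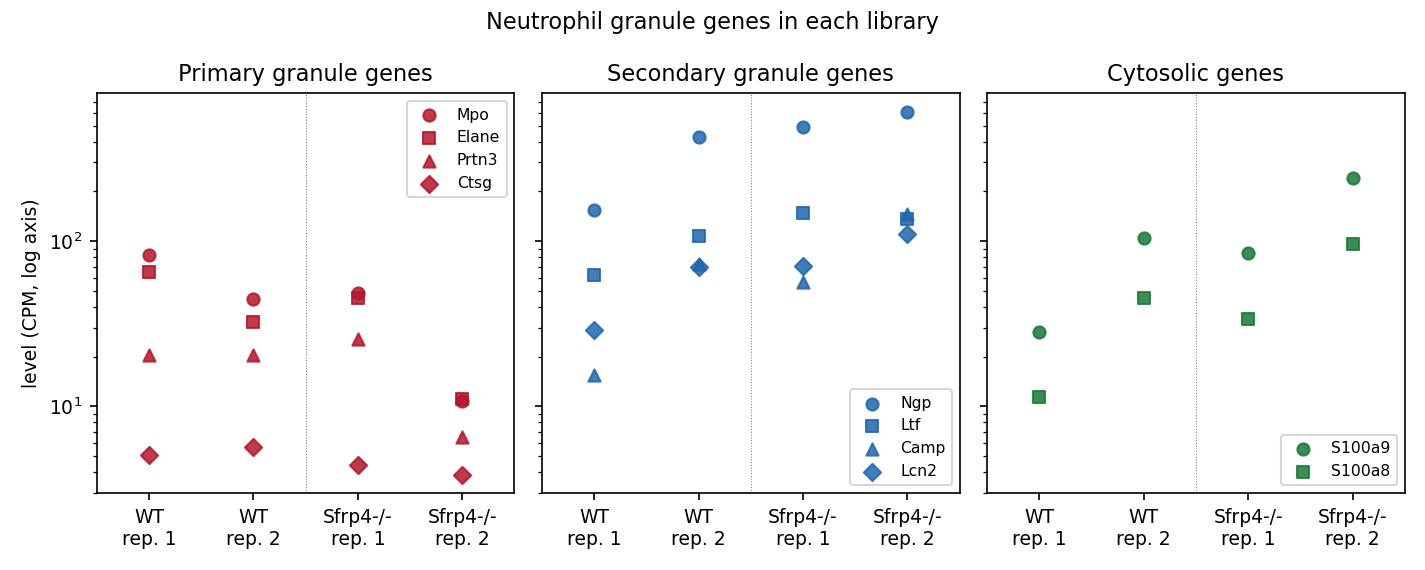
Level of each of the 10 granule genes (CPM, log axis) in the 4 libraries, with 1 point per library and a panel for each granule class. Mpo and Elane were highest in wild-type pool 1 and near 11 CPM in Sfrp4-/- pool 2, while S100a8, S100a9 and Camp ran the other way.

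Each of the 4 primary granule genes was lowest in Sfrp4-/- pool 2, and Mpo and Elane were highest in wild-type pool 1. Mpo (ENSMUSG00000009350, plus strand of chromosome 11, 87793581 to 87804413, mm10) encodes myeloperoxidase, which makes hypochlorous acid from hydrogen peroxide. It was at 82.2 and 44.5 CPM in wild-type pools 1 and 2, against 48.7 and 10.8 CPM in Sfrp4-/- pools 1 and 2. Its genotypes overlapped, since Sfrp4-/- pool 1 lay between the wild-type libraries. Elane (ENSMUSG00000020125, plus strand of chromosome 10, 79886247 to 79888215), the gene of neutrophil elastase, was at 65.4 and 32.6 CPM in the wild-type pools, against 45.4 and 11.1 CPM in the Sfrp4-/- pools. It followed Mpo, with 0.733 to 1.03 Elane counts for each Mpo count in the 4 libraries.

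Prtn3 and Ctsg, which encode the related proteases proteinase 3 and cathepsin G, varied less. Prtn3 (ENSMUSG00000057729, chromosome 10, 79874476 to 79883174) lies 3072 bases before Elane on the same strand, with no protein-coding gene between them. It was at 20.3 and 20.5 CPM in the wild-type pools, against 25.5 and 6.57 CPM in the Sfrp4-/- pools, so only Sfrp4-/- pool 2 stood apart. For each Elane count there were 0.311 Prtn3 counts in wild-type pool 1 (95% exact binomial interval 0.273 to 0.354) and 0.561 to 0.630 in the other libraries. The counted ratio of the neighbouring genes thus differed between libraries, and the interval of wild-type pool 1 lay below those of the other libraries. These intervals cover counting error only, not the spread between pools. Ctsg (ENSMUSG00000040314, minus strand of chromosome 14, 56099881 to 56102574) was at 5.07 and 5.66 CPM in the wild-type pools, against 4.43 and 3.84 CPM in the Sfrp4-/- pools, a span of 1.47-fold. It was the only primary granule gene with both Sfrp4-/- libraries below both wild-type libraries, as in 12.6% of all tested genes, and it rested on 76 to 97 counts per library. Its share of the counts of the primary class was 2.93% and 5.48% in wild-type and 3.57% and 11.9% in Sfrp4-/- libraries.

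Libraries without strand cannot separate genes that overlap on opposite strands. Of the exon bases of Mpo, 15.0% are shared with Gm11505 on the other strand, which was listed with 0 counts in all libraries. Prtn3 shares 9.18% with Plppr3, which had 73 and 28 counts in wild-type and 95 and 40 counts in Sfrp4-/- libraries. The other 8 members share no exon base with another gene of GENCODE M21, whose coordinates matched those of the table for all 10.

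The secondary granule genes were lowest in wild-type pool 1. Ngp (ENSMUSG00000032484, plus strand of chromosome 9, 110419747 to 110423012) encodes neutrophilic granule protein, a mouse member of the cystatin and cathelicidin group. It was at 155 and 425 CPM in the wild-type pools, against 491 and 609 CPM in the Sfrp4-/- pools. Ngp held 59.1% to 64.0% of the counts of its class in every library. Ltf (ENSMUSG00000032496, plus strand of chromosome 9, 111019271 to 111042767) encodes the iron-binding protein lactoferrin and was at 62.8 and 108 CPM in the wild-type pools, against 149 and 136 CPM in the Sfrp4-/- pools. Lcn2 (ENSMUSG00000026822, minus strand of chromosome 2, 32384633 to 32388252), the gene of a protein that sequesters bacterial siderophores, was at 29.1 and 69.4 CPM in the wild-type pools, against 70.8 and 111 CPM in the Sfrp4-/- pools. These 3 genes did not overlap between genotypes, with Sfrp4-/- the higher, which held for 15.0% of all tested genes. For Lcn2 the gap between wild-type pool 2 and Sfrp4-/- pool 1 was small, at 69.4 against 70.8 CPM.

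Camp (ENSMUSG00000038357, minus strand of chromosome 9, 109847379 to 109849617) encodes the only mouse cathelicidin, a precursor of an antimicrobial peptide. It was at 15.4 and 72.4 CPM in the wild-type pools, against 56.6 and 146 CPM in the Sfrp4-/- pools, the widest span of any member at 9.45-fold. The genotypes overlapped. Within the class the members did not keep 1 ratio. For each Ngp count there were 0.0995 and 0.170 Camp counts in wild-type and 0.115 and 0.239 in Sfrp4-/- libraries, while Ltf ran the other way, at 0.406 and 0.254 in wild-type and 0.303 and 0.224 in Sfrp4-/- libraries. The library with the most Camp for each Ngp count thus had the least Ltf, and the library with the least Camp had the most Ltf. Lcn2 stayed closer to Ngp, at 0.144 to 0.188 counts for each Ngp count.

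The cytosolic pair had the same order of libraries as Camp. S100a9 (ENSMUSG00000056071, minus strand of chromosome 3, 90692632 to 90695721) was at 28.3 and 105 CPM in the wild-type pools, against 85.3 and 241 CPM in the Sfrp4-/- pools. S100a8 (ENSMUSG00000056054, plus strand of chromosome 3, 90668978 to 90670035) was at 11.4 and 45.4 CPM in the wild-type pools, against 33.6 and 96.7 CPM in the Sfrp4-/- pools. In both genes wild-type pool 1 was lowest, Sfrp4-/- pool 2 was highest, and the genotypes overlapped. The genes of these partner proteins lie 22596 bases apart on opposite strands with no protein-coding gene between them. While their levels spanned 8.52-fold and 8.48-fold, their ratio moved by only 1.10-fold, with 2.49 and 2.31 S100a9 counts for each S100a8 count in wild-type and 2.54 and 2.50 in Sfrp4-/- libraries. The 95% exact binomial intervals of these ratios overlapped in all 4 libraries, the widest being 2.08 to 2.99 in wild-type pool 1. Such intervals cover counting error only. S100a9 also stayed near Camp, at 1.45 to 1.84 counts for each Camp count.

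The span between libraries was wide for several members: in 5 of 10 (Mpo, Elane, Camp, S100a8 and S100a9) the highest library was at least 5 times the lowest, against 14.1% of all tested genes. Much of it lay between libraries of 1 genotype. Mpo was 1.85-fold higher in wild-type pool 1 than in pool 2, and 4.51-fold higher in Sfrp4-/- pool 1 than in pool 2. S100a9 was 3.71-fold higher in wild-type pool 2 than in pool 1, and 2.83-fold higher in Sfrp4-/- pool 2 than in pool 1. In 5 of the 6 secondary and cytosolic genes, all but Ltf, the library numbered 2 was the higher in both genotypes, which held for 31.2% of all tested genes. In 2 of the 4 primary genes, Mpo and Elane, it was the lower in both, which held for 32.8%.

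The ratio of the classes was then compared, since it does not depend on library size or on how totals are scaled. For each count of the primary granule genes there were 1.52 counts of secondary granule genes in wild-type pool 1, 6.54 in wild-type pool 2, 6.19 in Sfrp4-/- pool 1 and 31.0 in Sfrp4-/- pool 2. The 95% exact binomial intervals were 1.44 to 1.59, 6.22 to 6.88, 5.93 to 6.47 and 28.7 to 33.5. Those of wild-type pool 2 and Sfrp4-/- pool 1 overlapped, while those of the other libraries lay far from them on either side. The intervals cover counting error only, not the spread between pools. From the lowest to the highest library the ratio differed 20.4-fold. The ratio of cytosolic to primary genes spanned 45.5-fold, at 0.230 and 1.46 in wild-type and 0.960 and 10.5 in Sfrp4-/- libraries. The ratio of cytosolic to secondary genes spanned only 2.23-fold, at 0.152 and 0.223 in wild-type and 0.155 and 0.338 in Sfrp4-/- libraries.

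**Figure D2:**
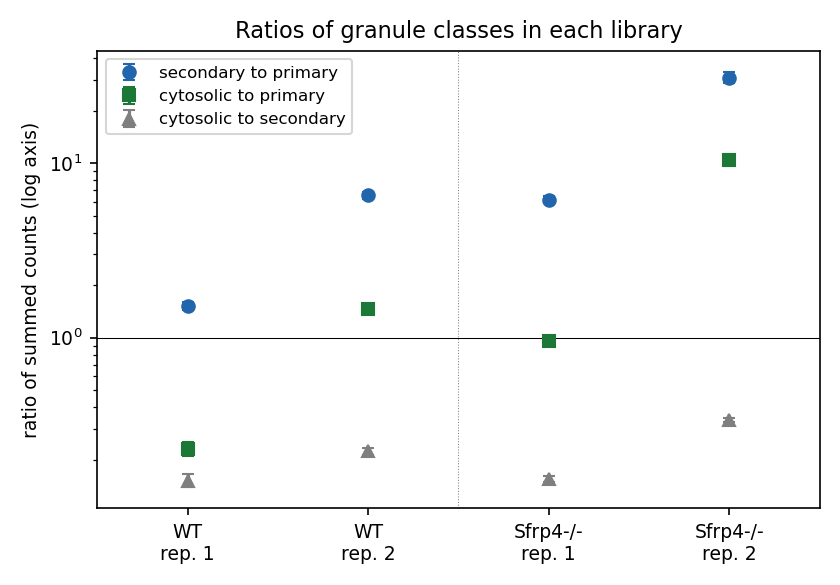
Ratio of summed counts of granule classes (log axis) in the 4 libraries, with 1 point per library and bars for 95% exact binomial intervals, most of them smaller than the points. The ratio of secondary to primary genes was 1.52 in wild-type pool 1, 6.54 and 6.19 in wild-type pool 2 and Sfrp4-/- pool 1, and 31.0 in Sfrp4-/- pool 2.

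Between genotypes, the mean log2 ratio of secondary to primary genes was 1.66 ± 1.49 in wild-type and 3.79 ± 1.64 in Sfrp4-/- libraries (SD, n = 2 each), a difference of 2.14. A two-sided exact permutation test gave p = 0.667, and 2 libraries against 2 cannot give a p below 0.333. For cytosolic to primary genes the means were -0.79 ± 1.88 and 1.66 ± 2.44, a difference of 2.45 (two-sided exact permutation test, p = 0.667). Neither difference went beyond the spread between libraries of 1 genotype in this test, and wild-type pool 2 lay above Sfrp4-/- pool 1 in both ratios. Without Sfrp4-/- pool 2 the differences were 0.98 and 0.73, without wild-type pool 1 they were 1.08 and 1.12, without wild-type pool 2 they were 3.19 and 3.79, and without Sfrp4-/- pool 1 they were 3.30 and 4.18.

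In the fit over all genes the 4 primary granule genes had values below 0 and the 6 other members values above 0, where 50.4% of all tested genes stood, and none passed. Log2 fold changes are Sfrp4-/- minus wild-type with their standard error (SE). Mpo had -1.09 ± 0.68 (edgeR unadjusted p = 0.152) and Elane -0.79 ± 0.66, while Prtn3 and Ctsg had -0.35 ± 0.59 and -0.37 ± 0.46. S100a9 had 1.29 ± 0.71 (edgeR unadjusted p = 0.111), S100a8 1.20 ± 0.72 and Camp 1.20 ± 0.75. Ngp, Lcn2 and Ltf had 0.92 ± 0.50, 0.88 ± 0.47 and 0.74 ± 0.36, and Ltf had the lowest edgeR unadjusted p of the members, at 0.0783 (edgeR adjusted p = 1.00). Every member had an edgeR adjusted p of 1.00. With edgeR's quasi-likelihood test and Benjamini-Hochberg adjustment, 0 of 10 members passed 0.05, as did 0% of the 13737 genes tested. Sfrp4 itself did not pass, so a member that did not pass may still differ between genotypes. At an unadjusted p under 0.05 there were 0 members with edgeR, 3 with DESeq2 (fitted to 21751 genes, with no filter) and 1 with limma-voom, against 2.12%, 1.97% and 1.96% of all genes in those fits, and DESeq2 and limma-voom also called 0 members after adjustment.

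The median log2 fold change was -0.58 for the primary, 0.90 for the secondary and 1.24 for the cytosolic class and 0.81 for all 10, against 0.0031 for all genes tested. These medians depended on single libraries. The primary median ranged from -1.89 without Sfrp4-/- pool 1 to -0.18 without Sfrp4-/- pool 2, where Prtn3 stood at 0.33. The secondary median was 0.40 without wild-type pool 1 and 1.73 without wild-type pool 2. The cytosolic median was 0.58 and 2.51 without those libraries and 0.31 without Sfrp4-/- pool 2.

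**Figure D3:**
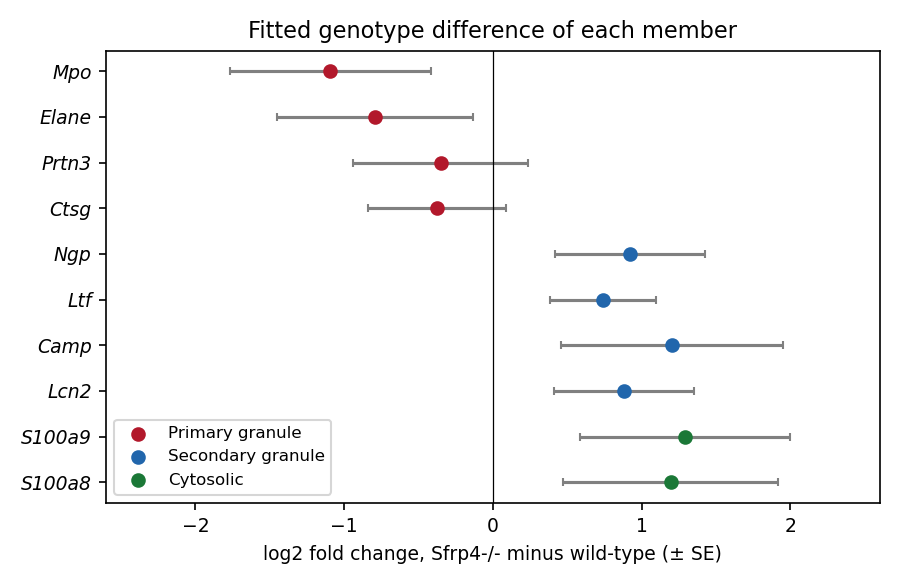
Fitted log2 fold change of each granule gene, Sfrp4-/- minus wild-type, with bars for the standard error (n = 2 libraries per genotype). The 4 primary granule genes lay between -1.09 and -0.35 and the 6 other members between 0.74 and 1.29, and none passed the test over all genes.

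Genes that act with the members were examined as lists, and no gene of them passed. Of 6 other genes of azurophil granule proteins or their handling, 5 were tested, all 5 below 0, with a median log2 fold change of -0.11. The most abundant were Cd63, a tetraspanin of granule and lysosome membranes (3400 to 4664 CPM, -0.14 ± 0.37), Lyz2, the lysozyme of neutrophils and macrophages (150 to 653 CPM, -0.11 ± 0.68), and Ctsc, which activates the serine proteases (43.4 to 92.8 CPM, -0.071 ± 0.41). These 3 signs were not stable, since each was above 0 when library totals were used alone. Cd63 and Lyz2 are made by many other cells. Of 14 other genes of specific and gelatinase granules, 12 were above 0 and 2 below, with a median of 0.32. In 2 of them, Pglyrp1 and Cybb, the genotypes did not overlap and Sfrp4-/- was the higher, against 15.0% of all tested genes, and in 1, Olfm4, it was the lower, against 12.6%. These 3 were picked out after their values were seen. Their log2 fold changes were 0.54 ± 0.40 for Pglyrp1, 0.63 ± 0.37 for Cybb and -1.62 ± 0.82 for Olfm4. The gelatinase gene Mmp9 was at 1196 to 2086 CPM (0.38 ± 0.39), the oxidase subunit gene Cyba at 103 to 226 CPM (0.13 ± 0.46) and the chitinase-like gene Chil3 at 40.0 to 151 CPM (0.36 ± 0.58). Mmp9 is also an abundant product of osteoclasts.

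Of 9 genes of transcription factors of the lineage, 6 were above 0 and 3 below, with a median of 0.39. In 5 of them the genotypes did not overlap and Sfrp4-/- was the higher, against 15.0% of all tested genes. In 1, Gfi1, Sfrp4-/- was the lower, against 12.6%. Gfi1, named after its values were seen, had 15 and 35 counts in wild-type and 9 and 4 counts in Sfrp4-/- libraries (-2.145 ± 1.156). Spi1, which encodes PU.1, was at 81.3 to 154 CPM (0.39 ± 0.37), Cebpd at 64.8 to 78.9 CPM (0.21 ± 0.28) and Mxd1, a Myc antagonist, at 16.5 to 29.3 CPM (-0.044 ± 0.37, above 0 with library totals alone, with limma-voom and with the replicate number as a block). Myb, chosen after its values were seen, had the only unadjusted edgeR p under 0.05 of the list, at 0.00923 (edgeR adjusted p = 1.00). It had 1 and 0 counts in wild-type and 43 and 27 counts in Sfrp4-/- libraries, a ratio of pooled levels of 57.6 (95% exact binomial interval 10.0 to 2306, counting error only).

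The 10 genes of neutrophil surface proteins had a median of 1.16, with 7 above 0 and 3 below. In 6 of the 10 the genotypes did not overlap and Sfrp4-/- was the higher, against 15.0% of all tested genes. The same held for 6 of 9 erythroid, 4 of 8 macrophage and 4 of 7 B lineage genes, and their part in this count was not tested. The 6 surface genes, named after their values were seen, were Ly6g, Cxcr2, Fpr2, Csf3r, Fpr1 and Cxcr4. All 6 were low, with means over the libraries of 0.82 to 3.99 CPM. Cxcr4 rested on 3 and 4 counts in wild-type and 26 and 30 counts in Sfrp4-/- libraries. The most abundant of the 10 were the Fc receptor gene Fcgr3 (7.94 to 21.6 CPM, -0.34 ± 0.51), the progenitor gene Ms4a3 (2.77 to 6.34 CPM, -0.51 ± 0.52) and Ly6g, the marker of mouse neutrophils. Ly6g was at 1.53 and 2.57 CPM in the wild-type pools, against 5.45 and 6.42 CPM in the Sfrp4-/- pools, with no overlap (1.53 ± 0.55, edgeR unadjusted p = 0.0280, adjusted p = 1.00). It was the only gene of this list with an unadjusted p under 0.05. Under the alternatives tried, its adjusted p lay between 0.509 and 1.00 (edgeR, DESeq2 and limma-voom).

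Of 10 genes of protease inhibitors and receptors for the secreted products, 4 were above 0 and 6 below, with a median of -0.11. The protease inhibitor gene Serpinb6a was at 64.2 to 130 CPM (-0.18 ± 0.41) and the lipocalin receptor gene Slc22a17 at 20.9 to 43.1 CPM (-0.037 ± 0.44), both above 0 with library totals alone. Lrp1, an endocytic receptor that binds lactoferrin, was at 107 and 63.1 CPM in the wild-type pools, against 53.1 and 31.4 CPM in the Sfrp4-/- pools (-1.01 ± 0.41, edgeR unadjusted p = 0.0428, adjusted p = 1.00). Ager, a receptor for S100 proteins chosen after its values were seen, was at 3.74 and 2.92 CPM in the wild-type pools, against 1.08 and 0.730 CPM in the Sfrp4-/- pools (-1.87 ± 0.74, edgeR unadjusted p = 0.0401, adjusted p = 1.00).

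Markers of other cells also varied across the same libraries. The summed level of 9 erythroid genes was 731 and 2148 CPM in the wild-type pools, against 2030 and 2643 CPM in the Sfrp4-/- pools, so wild-type pool 1 was lowest and Sfrp4-/- pool 2 highest, as for the secondary granule genes at 262, 675, 768 and 1001 CPM. The summed level of 9 periosteal and skeletal genes was 374600, 219900, 267900 and 137400 CPM, the same order of libraries as the summed primary granule genes at 173, 103, 124 and 32.3 CPM. The periosteal sum was mostly Sparc, Col1a1 and Col1a2, and of the 9 genes only Col1a1 and Col1a2 had this order. Ctsk, at 1054 and 2050 CPM in the wild-type pools, against 1461 and 1684 CPM in the Sfrp4-/- pools, did not. Among the primary granule genes only Mpo and Elane had it. Prtn3 was highest in Sfrp4-/- pool 1 and Ctsg in wild-type pool 2. The 8 macrophage genes summed to 279 and 283 CPM in the wild-type pools, against 347 and 368 CPM in the Sfrp4-/- pools, and the 5 monocyte genes to 68.1 to 96.6 CPM. Most of the macrophage sum was Cd68 and Csf1r. The complement gene C1qb, chosen after its values were seen, was lowest in wild-type pool 1 like the secondary granule genes, at 1.33 and 8.45 CPM in the wild-type pools, against 12.9 and 13.2 CPM in the Sfrp4-/- pools. C1qa, C1qc, Cd68, Ms4a7 and Adgre1 were also lowest there, but the rest of the macrophage list was not. Csf1r was lowest in wild-type pool 2, at 47.3 CPM, and Mrc1 was highest in wild-type pool 1, at 1.47 CPM. The 7 eosinophil genes summed to 0.0667 and 40.5 CPM in the wild-type pools, against 172 and 5.21 CPM in the Sfrp4-/- pools, an order unlike that of any granule class, and Epx was at 0 counts in all but Sfrp4-/- pool 1. The 7 B lineage genes summed to 39.6 and 62.3 CPM in the wild-type pools, against 58.0 and 75.5 CPM in the Sfrp4-/- pools. The 4 megakaryocyte genes summed to 7.34 to 24.1 CPM, the 4 endothelial genes to 1.22 to 11.1 CPM, the 5 T and NK cell genes to 2.09 to 6.35 CPM with Cd3e at 0 throughout, and the 5 genes of excluded surface proteins to 8.85 to 12.5 CPM. All 5 mast cell and basophil genes were at 0 in 3 libraries and had 1 to 8 counts each in Sfrp4-/- pool 2. The part of other cells in the levels of the granule genes was not tested.

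The genes most like the primary and the secondary class over the 4 libraries were sought among 8789 other protein-coding genes with a mean of at least 5 CPM. Log2 profiles were centred on each gene's mean, and the distance was taken to the mean profile of the class members. Single members lay off that mean. Ctsg was at 0.098 in wild-type pool 1 and -0.26 in Sfrp4-/- pool 2, against 0.63 and -1.19 for the primary mean. Camp and Ltf were at -1.81 and -0.78 in wild-type pool 1, against -1.24 for the secondary mean. For the secondary granule genes the nearest were Hba-a1 (distance 0.0979), Hbb-bt (0.206), Lsp1 (0.219), S100a6 (0.262) and Hba-a2 (0.324), against a median distance of 1.64. The globin genes, which encode chains of haemoglobin, thus filled 3 of the 5 places. For each Ngp count there were 1.48 and 1.42 Hba-a1 counts in wild-type and 1.42 and 1.54 in Sfrp4-/- libraries, a span of 1.09-fold, while Ngp itself spanned 3.93-fold. Hba-a1 was picked as the gene nearest to the class over these same libraries, and Ngp is a member of the class. The steady ratio therefore follows from that choice and is not a further result. Counts of Hba-a1 and Hba-a2 are uncertain, since they are near-identical copies. For the primary granule genes the nearest were Stbd1 (0.137), Pcdhgc3 (0.155), P4ha2 (0.202), Qsox1 (0.216) and Mogs (0.223), against a median distance of 1.45. P4ha2 encodes a collagen prolyl hydroxylase and Qsox1 a secreted disulfide-forming oxidase, and Mogs encodes a glycan-trimming enzyme of the endoplasmic reticulum. P4ha2 was at 562 and 371 CPM in the wild-type pools, against 494 and 147 CPM in the Sfrp4-/- pools. With 4 libraries, many genes have similar profiles, and these distances are descriptions.

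**Figure D4:**
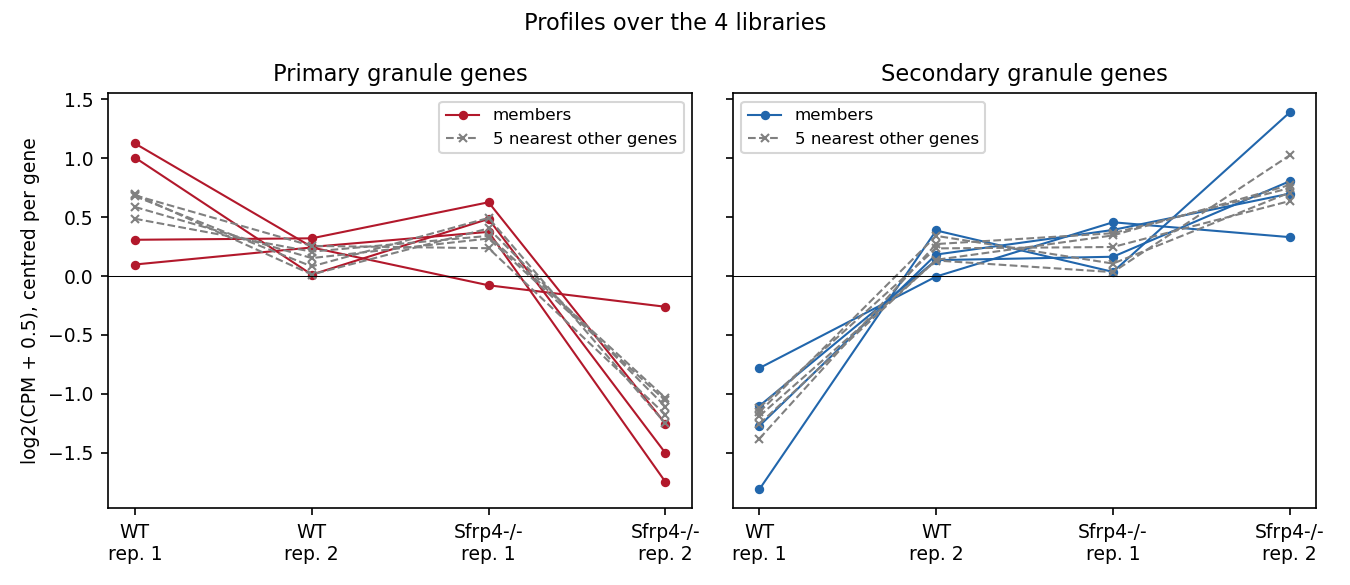
Profiles of the primary and secondary granule genes over the 4 libraries, as log2(CPM + 0.5) minus each gene's mean. Solid lines are the 4 members of each class, and dashed lines are the 5 other genes nearest to the mean profile of the class. The lines join libraries only as a guide, and the primary genes had their lowest values in Sfrp4-/- pool 2 and the secondary genes in wild-type pool 1.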

How the data were processed

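A single table of whole-number gene counts, with coordinates and gene lengths, is what the authors deposited. Per the labels' protocols, non-directional ultra-low-input SMARTer libraries were made. Per the submitters' processing notes, the tools were HISAT2 2.0.5, CASAVA, DESeq2 1.20.0 and featureCounts 1.00-p3, on mm10. Counting options were not given in the sources used here. Without molecular identifiers, intervals cover counting error only. Groups and replicate numbers came from sample titles. No library repeated another: chi-square per degree of freedom ran from 56.3 to 254.9 over the pairs.

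Genotype was tested in R 4.3.3 with the quasi-likelihood functions of edgeR 4.0.16 (glmQLFit, glmQLFTest), after filterByExpr kept 13737 genes and with TMM factors of 0.877 to 1.19. No covariate was used, and p-values were adjusted by Benjamini-Hochberg over those genes (threshold 0.05). SE was taken as |log2 fold change| over the root of the F statistic. The common dispersion was 0.173. CPM uses the totals of filtered genes times TMM factors. Alternatives used DESeq2 1.42.0, limma-voom (limma 3.58.1), other factors and filters, the replicate number as a block and each library left out. Recovery of known changes was checked on simulated counts, with the outcome not reported here. Ratios and intervals were computed with SciPy 1.17.1, and annotation came from GENCODE M21. The members and lists were chosen with earlier results of these data known. Named beside the members are the 3 most abundant genes of each pathway list and the 5 nearest profiles of the primary and secondary classes. Other genes, among them Myb, Ager, Pglyrp1, Cybb and Olfm4, were chosen after their values were seen.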

Additional observations from a re-analysis of the deposited data

How the results depend on the processing

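No member passed under any of the 11 alternatives to the fit. Members with an unadjusted p under 0.05 numbered 0 to 8 across them, and the share of all tested genes under it ran from 1.08% without Sfrp4-/- pool 2 (0 members) to 10.0% without wild-type pool 1 (0 members). It was 6.33% without wild-type pool 2 and 2.97% without Sfrp4-/- pool 1 (7 members each), and 3.20% in edgeR without the filter (7 members). The sign of every member was kept under every alternative except Prtn3 without Sfrp4-/- pool 2, and Ctsg was not tested when 5 CPM in 2 libraries were required. Leaving out 1 library, the median log2 fold change was -1.89 to -0.18 for primary, 0.40 to 1.73 for secondary and 0.31 to 2.51 for cytosolic genes. The log2 ratio differences ranged from 0.98 to 3.30 (secondary to primary) and 0.73 to 4.18 (cytosolic to primary) with a library left out, and from 1.92 to 2.20 and 2.23 to 2.45 otherwise. Library totals alone moved the median of all genes to 0.24. DESeq2 and edgeR, both without the filter, moved it to 0.12 and 0.14. Over all genes, 0 passed in the main test, 20 with edgeR without the filter, 7 with DESeq2 and 2 to 7 with a library left out.

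Of 35 single genes, 14 changed sign under some alternative. With library totals alone the log2 fold changes were 0.090 for Cd63, 0.12 for Lyz2, 0.12 for Ctsc, 0.18 for Mxd1, 0.050 for Serpinb6a and 0.17 for Slc22a17. With limma-voom they were 0.18 for Lyz2 and 0.00074 for Mxd1. With a library left out the ranges were -0.35 to 0.099 for Cd63, -0.81 to 1.30 for Lyz2, -0.72 to 0.39 for Ctsc, -0.038 to 0.71 for Mmp9, -0.33 to 0.79 for Cyba, -0.29 to 1.61 for Chil3, -0.050 to 0.74 for Spi1, -0.39 to 0.42 for Mxd1, -0.89 to 0.55 for Fcgr3, -0.60 to 0.41 for Serpinb6a, -0.65 to 0.40 for Slc22a17, -1.64 to 0.33 for Prtn3, -1.66 to 0.094 for P4ha2 and -1.51 to 0.024 for Mogs. The causes were not tested.

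The libraries share replicate numbers, but the labels do not say that a number marks a shared batch. Across 13737 genes, the difference between replicates 1 and 2 in wild-type correlated with that in Sfrp4-/- libraries (Pearson 0.322). With the replicate number as a block, 0 members passed (lowest edgeR adjusted p = 0.417), 8 had an unadjusted p under 0.05 against 6.29% of all tested genes, 1 gene of all tested passed, and Lyz2 and Mxd1 had log2 fold changes of 0.17 and 0.0049. Paired by number, the log2 ratio differences are 2.14 and 2.45 as before by construction, and the exact sign-flip p is 0.5, the smallest that 2 pairs allow. Without molecular identifiers, how many molecules lie behind the counts is not known.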
